A study of Mus musculus with 6 samples.

Results

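Molecular chaperones of the cytosol and of mitochondria were followed in Wehi-231, a mouse B cell lymphoma line of strain (BALB/c x NZB)F1, on 6 Illumina bead arrays. Every sample carried a short hairpin RNA. In 3 samples it was shCT, the comparison hairpin, and in 3 it was shTFII-I, whose name points to the product of Gtf2i, the transcription factor TFII-I. All were grown in the same medium. How the hairpins were delivered, and whether cells were pools or clones, is not given in the sources used here. Nothing states that replicates came from separate cultures, and a p-value here covers just the variation among these 6 samples, part of which may be technical. In bulk samples like these, fewer cells that express a gene and less RNA per cell cannot be told apart. The question behind the arrays is which transcripts change when TFII-I is reduced.

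The genes were chosen by symbol: every gene whose symbol starts with Hsp, with Dnaja, Dnajb or Dnajc and a digit, or with Cct and a digit from 2 to 8. The chaperones of the endoplasmic reticulum Hspa5, Hsp90b1, Dnajb9, Dnajb11, Dnajc3 and Dnajc10 were left out. This gave 73 of the 19057 genes named on the array, with 139 probes. Of the 73 genes, 36 had a probe above the estimated background, 6.61 on the log2 scale, in at least 3 arrays, and these were tested among 7215 genes in all. Of the 36, 29 were above background in all 6 arrays and 7 in 3 to 5 arrays, and 0 were above background in the arrays of 1 group only. Close to the limit, the third highest array stood at 6.61 for Cct5 and 6.62 for Dnajc28, which were kept, and at 6.59 for Dnajb13 and 6.56 for Cct7, which were not. The symbols also take in genes outside the name given to the set. Dnajb12, Dnajc16 and Dnajc18 are known as proteins of the endoplasmic reticulum membrane, Dnajc8 and Dnajc17 go with splicing, and Hspg2, which was not above background, encodes the matrix protein perlecan.

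Chaperones bind unfolded stretches of other proteins and let them go again in cycles of ATP use. HSP70 proteins are loaded by J domain proteins of the DNAJ families and emptied by exchange factors such as those of the HSP110 family, HSP90 acts later on kinases and receptors, and the ring complex CCT folds actin and tubulin. In mitochondria the same work falls to Hspa9, an HSP70, and to the chaperonin of Hspd1 and Hspe1. In stressed cells the heat shock factor HSF1 switches on many of these genes by binding heat shock elements, which are inverted repeats of GAA and TTC. Hspd1, Hspe1, Hsph1 and Dnajb1 are well known targets of heat shock.

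Heat shock elements could be placed in the start regions of several of these genes, and the sequences of 4 such regions are shown because the expression results below return to them. RefSeq sequence of build GRCm38.p6 was at hand for 60 of the 73 genes and 26 of the 36 tested ones, as 250 bases before each listed start. The motif of 2 units was spelled GAANNTTC or TTCNNGAA and the motif of 3 units GAANNTTCNNGAA or TTCNNGAANNTTC, each searched on both strands, and the motif of 3 units always holds that of 2. A match to 2 units was found in 6 of 26 tested genes, 23.1%, and in 14.5% of the 27025 genes of the table. A match to 3 units was found in Hspd1, Hspe1 and Dnajb6, 11.5% of the 26, and in 0.514% of all genes, but Hspd1 and Hspe1 share 1 element. From one listed start of Hspd1 these 2 genes lie head to head, with starts 216 bases apart. The other listed start of Hspd1 lies downstream of the Hspe1 start, and its window holds no match. The element between them is 18 bases long, has 4 units and begins 89 bases before the start of Hspe1. Bases of any match are in capitals, and each sequence reads 5′ to 3′ on the strand of the gene named first.
Hspe1 and Hspd1, between the starts, chr1:55087933-55088147, plus strand of Hspe1: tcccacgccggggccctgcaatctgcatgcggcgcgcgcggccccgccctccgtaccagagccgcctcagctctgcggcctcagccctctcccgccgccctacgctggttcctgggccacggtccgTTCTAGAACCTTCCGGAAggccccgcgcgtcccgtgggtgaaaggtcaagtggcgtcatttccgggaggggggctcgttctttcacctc
Dnajb6, chr5:29735648-29735897, plus strand: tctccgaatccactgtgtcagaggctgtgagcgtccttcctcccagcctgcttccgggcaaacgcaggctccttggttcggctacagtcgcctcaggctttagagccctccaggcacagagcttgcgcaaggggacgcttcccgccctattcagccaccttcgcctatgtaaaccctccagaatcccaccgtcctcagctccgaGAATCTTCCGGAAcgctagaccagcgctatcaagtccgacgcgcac
Hsph1, chr5:149636337-149636586, minus strand: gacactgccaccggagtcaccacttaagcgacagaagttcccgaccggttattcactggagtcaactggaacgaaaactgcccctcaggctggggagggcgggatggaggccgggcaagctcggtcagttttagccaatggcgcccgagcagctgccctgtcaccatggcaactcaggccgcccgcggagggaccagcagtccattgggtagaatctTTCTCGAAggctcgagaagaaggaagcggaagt
Dnajb1, chr8:83607925-83608174, plus strand: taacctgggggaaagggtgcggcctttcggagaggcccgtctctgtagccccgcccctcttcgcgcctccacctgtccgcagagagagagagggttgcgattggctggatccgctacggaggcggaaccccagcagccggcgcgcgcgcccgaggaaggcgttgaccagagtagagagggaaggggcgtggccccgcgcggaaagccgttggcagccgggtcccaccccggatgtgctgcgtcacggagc
The region of Dnajb1, the DNAJ gene best known for induction by heat, holds no match in these letters, which says nothing of HSF1 itself. An E-box, spelled CACGTG, a motif bound by MYC and reported for TFII-I, was found in 4 of the 26 tested genes, 15.4%. Of the 60 genes with sequence, tested or not, 5 held it, 8.33%, beside 6.86% of all genes, which were not filtered by expression. Enrichment was not tested. Matches describe these windows and are not binding sites.

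No chaperone gene differed between the groups beyond the adjusted threshold. In the test of limma over all genes 0 of 36 chaperones passed an adjusted p of 0.05, and the share of all genes that passed was 0%. At an unadjusted p under 0.05 there were 2 chaperones, Dnajb1 and Hspb6, 5.56% of the 36, and the share of all genes was 6.64%, of which 3.09% were higher and 3.55% lower in shTFII-I. The groups did not overlap in 3 chaperones, Dnajb1, Hspb6 and Dnajc19, 8.33% of the 36, where 11.9% of all genes had groups that did not overlap, 5.49% with shTFII-I higher and 6.39% with it lower. Of the 36, 20 were higher and 16 lower in shTFII-I cells, with a median log2 difference of 0.03, and of all genes 3610 were higher and 3605 lower, with a median of 0.00024. For 26 of the 36 the SD within groups was larger than the difference between them. The 95% interval held 0 for 34 genes, and for 28 it lay between -1 and 1, so that a change of more than 2-fold in the deposited values was outside the interval. The deposited values still hold background signal, which makes differences of dim genes too small. After normexp, which models background and signal, 11 of 36 moved by more than 1.5 times, each away from 0 and none to the other sign. The columns share 1 distribution, so normexp changed all arrays almost alike. A move of dim genes away from 0 follows from that and is no separate check of their differences. Among the 11, Hsp90aa1 was at -0.46 ± 0.32 (SE), Cct5 at 0.32 ± 0.28 and Hspbap1 at 0.45 ± 0.40. Before normexp their SEs were 0.22, 0.12 and 0.30, so the SEs grew as well.

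**Figure D1:**
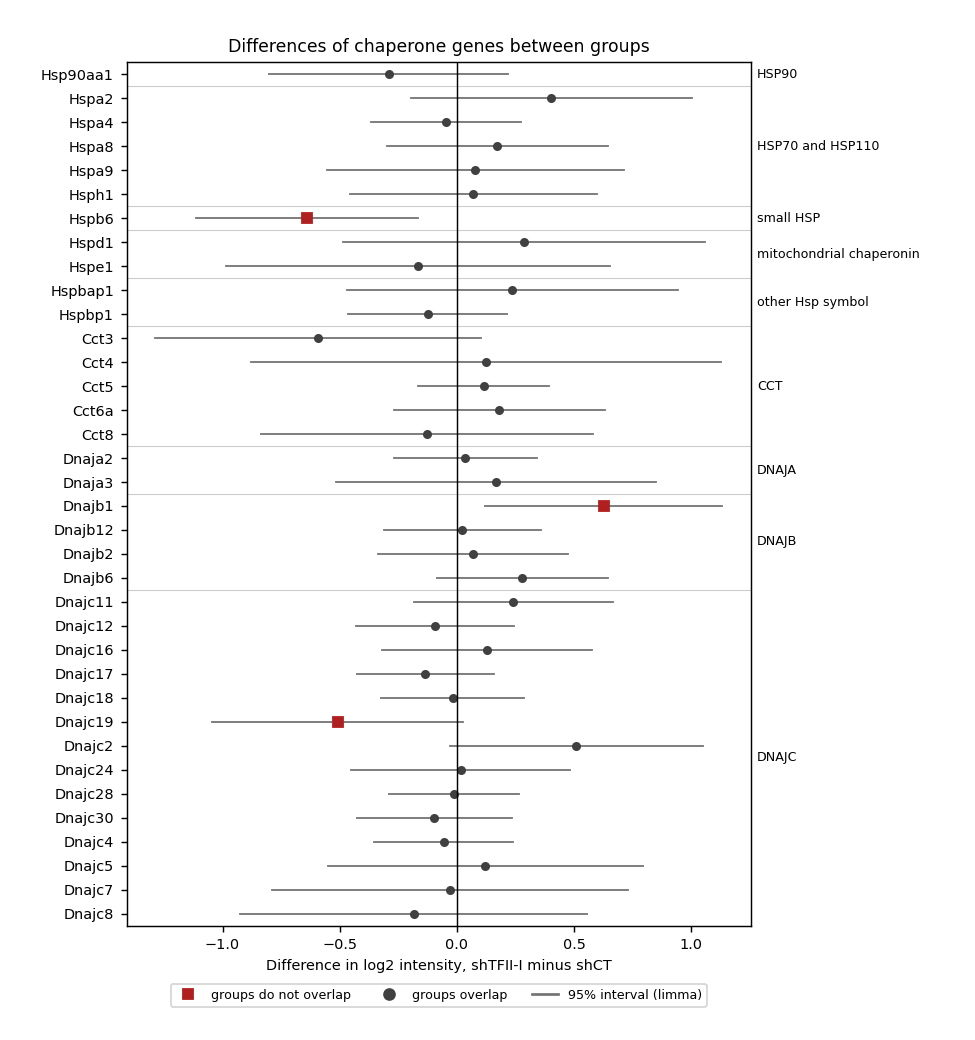
Difference in log2 intensity, shTFII-I minus shCT, for the 36 chaperone genes above background, grouped by class, with 95% intervals from limma (3 arrays a group). Squares mark Hspb6, Dnajb1 and Dnajc19, the genes whose groups do not overlap, and the interval of every gene but Dnajb1 and Hspb6 holds 0.

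Facts of all arrays frame these values. Of 45281 probes, 12766 lay above the background level on each array, since the deposited columns share 1 distribution, and precision is set by having 3 arrays a group. Pearson's r between arrays over 7215 genes, which are not independent replicates, ran from 0.939 to 0.969 within groups and from 0.939 to 0.978 between them. The only named probe of Gtf2i was not above background on any of the 6 arrays, at 6.47, 6.56 and 6.41 in shCT and 6.40, 6.53 and 6.44 in shTFII-I, and could not check the knockdown. Of 10 B cell markers 7 were named on the array and 6 of these were above background, the brightest being Cd79b at a mean of 10.68 in shCT and 11.42 in shTFII-I. In the same order the means were 9.68 and 10.40 for Cd74, 7.93 and 8.01 for Blnk and 7.55 and 7.49 for Ebf1. For Cd22 they were 6.89 and 6.88, and for Pax5, close to background, 6.58 and 6.64. Ms4a1 was named but not above background. Of 7 T cell markers 5 were named and 0 were above background, and the myeloid, erythroid and fibroblast markers that were above it, Csf1r, Tyrobp, Klf1 and Acta2, had means of 6.55 to 6.68.

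Among the J domain proteins, Dnajb1 gave the largest difference upward. Dnajb1 encodes the main cytosolic HSP40, a partner of HSP70 that is induced by heat. It read 9.07, 9.68 and 9.25 (log2 intensity) in shCT and 9.79, 10.30 and 9.80 in shTFII-I arrays. All shTFII-I arrays lay above all shCT arrays, and the second shCT array came nearest to them. The means were 9.33 ± 0.31 and 9.96 ± 0.29 (SD, n = 3 each), 1.54-fold apart. The difference was 0.63 ± 0.21 (log2, SE), with an unadjusted p in limma of 0.0217 and an adjusted p of 0.683. Leaving out 1 array at a time gave differences between 0.46 and 0.80. Without the first shCT array, without the third shCT array, without the second shTFII-I array, with array weights or with a prior that followed intensity, its unadjusted p was not under 0.05. Dnajb1 has 1 named probe, so no second probe could be set beside it.

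The other DNAJB genes were higher in the mean as well, with intervals that held 0. Dnajb6, which keeps proteins from aggregating, read 8.29, 8.68 and 8.38 in shCT and 8.56, 8.76 and 8.86 in shTFII-I arrays, and the groups overlapped. Its difference was 0.28 ± 0.16, but its other 2 probes above background differed by -0.25 and -0.13, and the mean of its probes had the other sign. Dnajb2, known from neurons, and Dnajb12 differed by 0.07 ± 0.17 and 0.02 ± 0.14. In the DNAJA family Dnaja3, the mitochondrial member, read 8.74, 9.80 and 9.51 in shCT and 9.44, 9.26 and 9.84 in shTFII-I arrays, so that the shCT arrays alone spanned more than 1 log2 unit. It differed by 0.17 ± 0.29, and Dnaja2, a cytosolic member close to background, by 0.04 ± 0.13. Dnaja1, the other main cytosolic member, was not above background on any array with either of its 2 probes.

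The DNAJC family, whose members share only the J domain, held differences in both directions. Of 14 tested genes 5 were higher and 9 lower, with a median of -0.02. Dnajc19 sits in the inner mitochondrial membrane beside the import motor. It read 9.96, 10.27 and 10.85 in shCT and 9.88, 9.91 and 9.76 in shTFII-I arrays. The shCT arrays all lay above the shTFII-I arrays, but the lowest of them was within 0.1 of the highest shTFII-I array. The difference was -0.51 ± 0.23 (log2, SE), with an unadjusted p of 0.0586 and an adjusted p of 0.745 in limma. It was -0.26 without the third shCT array and -0.71 without the first, where its unadjusted p was under 0.05. Its second probe above background, close to the limit, differed by -0.01, and the mean of both probes by -0.26.

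Dnajc2, which works at the ribosome on emerging chains, was the largest upward difference of the family. It read 10.43, 10.38 and 9.74 in shCT and 10.94, 10.41 and 10.73 in shTFII-I arrays. The groups overlapped, since the first shCT array lay just above the second shTFII-I array, and the third shCT array was the lowest of all. The difference was 0.51 ± 0.23 (adjusted p = 0.745 in limma), its second probe differed by -0.13, and the mean of both probes by 0.19. It was 0.29 without the third shCT array, and its unadjusted p was under 0.05 without the first shCT array and without the second shTFII-I array. As for Dnajc19 and Dnajc2, the intervals of the other 12 genes held 0, with differences from -0.18 ± 0.31 in Dnajc8 to 0.24 ± 0.18 in Dnajc11, a protein of the mitochondrial membrane. Among them were Dnajc5, the cysteine string protein of vesicles, at 0.12 ± 0.29, Dnajc7, a link between HSP70 and HSP90, at -0.03 ± 0.32, and Dnajc24, which serves diphthamide synthesis, at 0.02 ± 0.20.

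**Figure D2:**
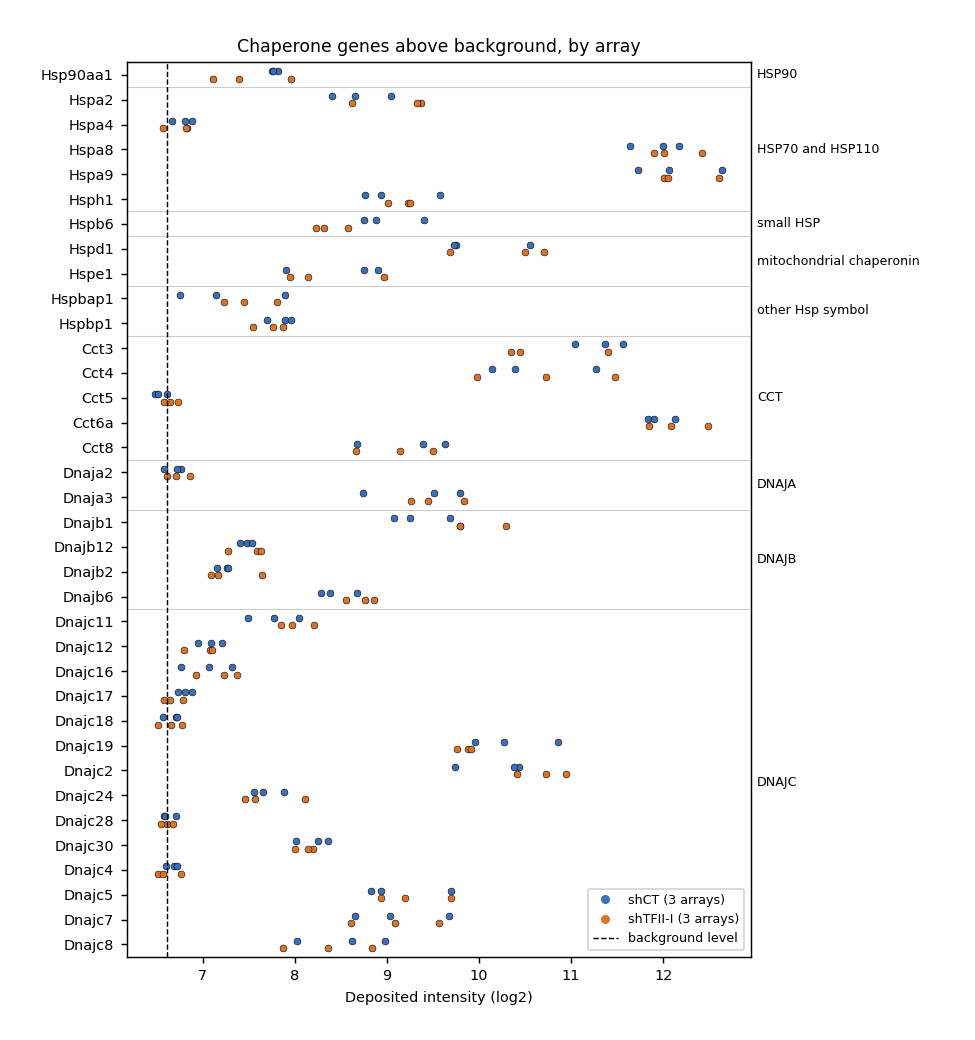
Deposited log2 intensity of the 36 chaperone genes in each of the 3 shCT and 3 shTFII-I arrays, grouped by class, with the background level of 6.61 as a dashed line. Points of both groups are mixed for nearly every gene, and apart for Dnajb1, Hspb6 and Dnajc19.

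The small heat shock proteins were represented by 1 gene. Of 8 named on the array, Hspb6 alone was above background, and it gave the largest downward difference of all chaperones. Hspb6, also called HSP20, is a chaperone without ATP use that is best known from muscle. It read 8.76, 8.88 and 9.40 in shCT and 8.58, 8.32 and 8.23 in shTFII-I arrays. All shTFII-I arrays lay below all shCT arrays. The means were 9.01 ± 0.34 and 8.38 ± 0.18 (SD, n = 3 each), 1.56-fold apart. The difference was -0.64 ± 0.20 (log2, SE), with an unadjusted p of 0.0152 and an adjusted p of 0.645 in limma. With 1 array left out it ran from -0.77 to -0.44, with an unadjusted p under 0.05 each time. Hspb6 has 1 named probe. A match to the heat shock motif of 2 units was found before the second of its 2 listed starts and none before the first. Hspb1 and Hspb8, also small heat shock proteins, had 2 named probes each, and at most 2 arrays lay above background on any of these.

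In the HSP70 and HSP110 class 4 of 5 tested genes were higher and 1 lower, with a median of 0.08, and 0 had groups that did not overlap. Hspa8, the constant HSP70 of the cytosol, read 11.63, 12.00 and 12.17 in shCT and 12.00, 11.90 and 12.42 in shTFII-I arrays. Its difference was 0.17 ± 0.20, and its other probes differed by 0.15 and 0.17. The 3 probes did not rank the arrays alike: the third shTFII-I array was the highest with the first of them and the lowest with the next, at 11.49. Hspa9, the HSP70 of mitochondria, read 12.64, 11.73 and 12.06 in shCT and 12.01, 12.60 and 12.05 in shTFII-I arrays. Its highest array was the first shCT array and its difference 0.08 ± 0.27, with 0.24 on the second probe.

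Hspa2, an HSP70 best known from germ cells, gave the largest difference of the class. It read 8.65, 8.41 and 9.05 in shCT and 9.37, 8.62 and 9.33 in shTFII-I arrays, and the second shTFII-I array lay among the shCT arrays. The difference was 0.40 ± 0.25 (adjusted p = 0.822 in limma). It was 0.26 without the second shCT array and 0.65 without the second shTFII-I array, and its unadjusted p was under 0.05 in the latter case and with array weights, at 0.58. On its second probe the groups did not overlap, with 7.01, 6.97 and 7.07 in shCT and 7.42, 7.22 and 7.28 in shTFII-I arrays and a difference of 0.29 ± 0.11. When every named probe was tested on its own in limma, this probe had an unadjusted p under 0.05. Of 52 chaperone probes 3 did so, this one included, and 0 passed the adjusted threshold. By tested probe, 11.9% of all genes had groups that did not overlap, and the share over all probes is not given here. The stated rule for giving values by array did not cover second probes. The exchange factors Hsph1 and Hspa4 differed by 0.07 ± 0.22 and -0.05 ± 0.14. Hspa1a and Hspa1b, the near-identical HSP70 genes that heat induces most, were not measurable: of their 5 probes 4 were below background on all arrays, and the other, of Hspa1b, reached 6.65 in the second shTFII-I array alone.

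The class HSP90 held 1 named gene besides the one left out. Hsp90aa1, the inducible HSP90 of the cytosol, read 7.81, 7.75 and 7.76 in shCT and 7.95, 7.39 and 7.11 in shTFII-I arrays. The shCT arrays were alike, with an SD of 0.03, and the shTFII-I arrays were not, with an SD of 0.43 and the first of them the highest of all 6. The difference was -0.29 ± 0.22 (adjusted p = 0.879 in limma), and it moved with single shTFII-I arrays. Without the first it was -0.52, with an unadjusted p under 0.05, and without the third it was -0.10. Its other 2 probes were above background in at most 2 arrays.

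The mitochondrial chaperonin pair, Hspd1 and Hspe1, had differences of opposite sign with intervals that overlap, and the difference between the genes was not tested. Hspd1, the ring protein HSP60, read 9.75, 10.55 and 9.73 in shCT and 10.50, 9.68 and 10.71 in shTFII-I arrays. The second shCT array and the first and the third shTFII-I arrays were high, and the other 3 arrays lay close together. The difference was 0.29 ± 0.33, from 0.08 without the third shTFII-I array to 0.59 without the second. The second probe, with 9.73, 9.99 and 8.84 in shCT and 9.68, 10.42 and 10.85 in shTFII-I arrays, differed by 0.80 ± 0.38. Hspe1, the lid protein HSP10, read 8.91, 8.75 and 7.90 in shCT and 8.97, 8.15 and 7.95 in shTFII-I arrays. Its high arrays were the first 2 of shCT and the first of shTFII-I, and its difference was -0.16 ± 0.35. The third shTFII-I array was the highest for both Hspd1 probes and the second lowest for Hspe1. For both genes the tested probe had arrays of 1 group more than 1 log2 unit apart. This held in shTFII-I for Hspd1 and in both groups for Hspe1, and in both groups on the second Hspd1 probe.

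**Figure D3:**
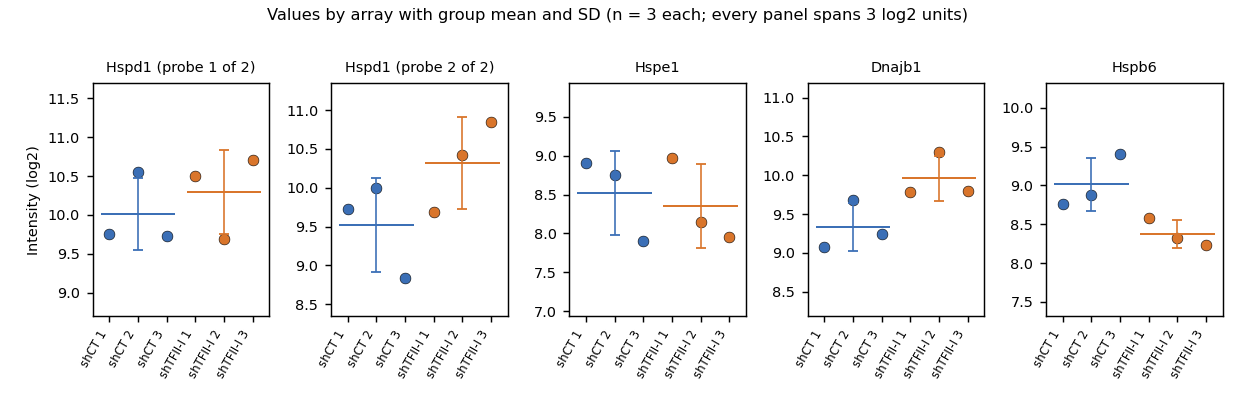
Log2 intensity by array for both Hspd1 probes, Hspe1, Dnajb1 and Hspb6, with the group mean as a line and the SD as a bar (n = 3 each). The groups are apart for Dnajb1 (means 9.33 and 9.96) and Hspb6 (9.01 and 8.38) and mixed in the other panels.

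The ring complex CCT is built of different subunits, and 5 of the 7 that the symbols cover besides the testis gene Cct6b and Cct8l1 were tested. Cct6a, Cct4 and Cct5 were higher in the mean, Cct3 and Cct8 lower, with a median of 0.11. Cct6a read 11.84, 12.13 and 11.90 in shCT and 12.09, 12.49 and 11.84 in shTFII-I arrays, a difference of 0.18 ± 0.19, with 0.04 on the second probe. Cct3 read 11.04, 11.37 and 11.56 in shCT and 11.40, 10.35 and 10.45 in shTFII-I arrays. The first shTFII-I array lay among the shCT arrays and the other 2 lay below all of them. The difference was -0.59 ± 0.30 (adjusted p = 0.782 in limma), with -0.22 on the second probe. It was -0.93 without the first shTFII-I array and -0.40 for the mean of both probes, each with an unadjusted p under 0.05. Cct4 read 10.15, 11.27 and 10.39 in shCT and 11.48, 10.72 and 9.98 in shTFII-I arrays, so that replicates lay more than 1 log2 unit apart in both groups, and the difference was 0.13 ± 0.43. Cct8 differed by -0.13 ± 0.30, and Cct5, close to background, by 0.11 ± 0.12. Cct2 and Cct7 were not above background in 3 arrays with their 1 named probe each. Of the 5 tested subunits all 5 lay above their gene mean in the second shCT and the first shTFII-I array, and 0 did in the third shTFII-I array. Tcp1, the remaining subunit, lies outside the symbols and was named for completeness after its values were seen. It differed by -0.09 ± 0.40.

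Outside these classes lie Hspbp1, an exchange factor of HSP70, and Hspbap1, named for its binding to a small heat shock protein. Hspbp1 read 7.70, 7.89 and 7.96 in shCT and 7.76, 7.87 and 7.54 in shTFII-I arrays and differed by -0.12 ± 0.14. Hspbap1 read 7.14, 7.89 and 6.75 in shCT and 7.23, 7.81 and 7.45 in shTFII-I arrays and differed by 0.24 ± 0.30. Its lowest and highest arrays were both of the shCT group.

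The spread between replicates was wide for several chaperones. In 7 of the 36 genes, 19.4%, the arrays of 1 group lay more than 1 log2 unit apart, namely in Cct3, Cct4, Dnaja3, Dnajc7, Hspd1, Hspe1 and Hspbap1. The share was 12.7% of all genes tested. It was 33.1% of the genes at or above the median level of the chaperones, a brighter set than the 36 as a whole. Of the chaperones named, Hspe1 and Hspbap1 lay below that level. The first shCT array lay above the gene mean for 9 of 36 chaperones and the second shCT array for 26, with median deviations of -0.11 and 0.09. Over all 7215 genes these arrays were above the gene mean for 3615 and 3535. The third shCT array was the highest of the 6 for 10 chaperones, 27.8%, and for 19.9% of all genes. The third shTFII-I array was the lowest for 11 chaperones, 30.6%, and for 19.4% of all genes.

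**Figure D4:**
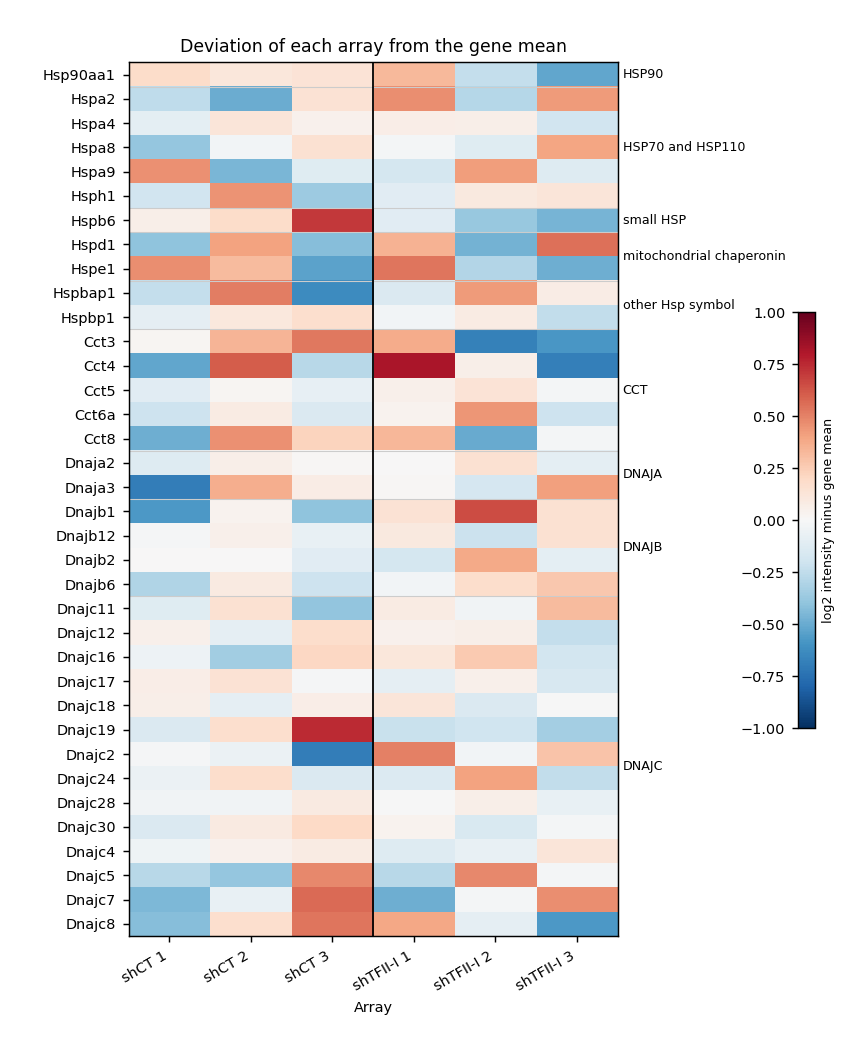
Log2 intensity of each array minus the gene mean over all 6 arrays, for the 36 chaperone genes by class; red is above and blue below the mean. The first shCT column is mostly blue (9 of 36 genes above their mean) and the second mostly red (26 of 36), and the row of Hspb6 turns from red to blue at the line between the groups.

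Where a gene had more than 1 probe above background, the probes did not always have differences of the same sign. Whether probes of a gene differed from each other was not tested. Of 14 such genes, 9 had every probe on the same side of 0 and 5 had a probe on the other side: Dnajb6, Dnajc2, Dnajc11, Dnajc12 and Dnajc16. For Dnajc11 and Dnajc12 that probe lay close to background, at means of 6.59 and 6.66, with differences of -0.001 and 0.07. All 3 Hspa8 probes lay between 0.15 and 0.17, while those of Hspd1 were 0.29 and 0.80.

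**Figure D5:**
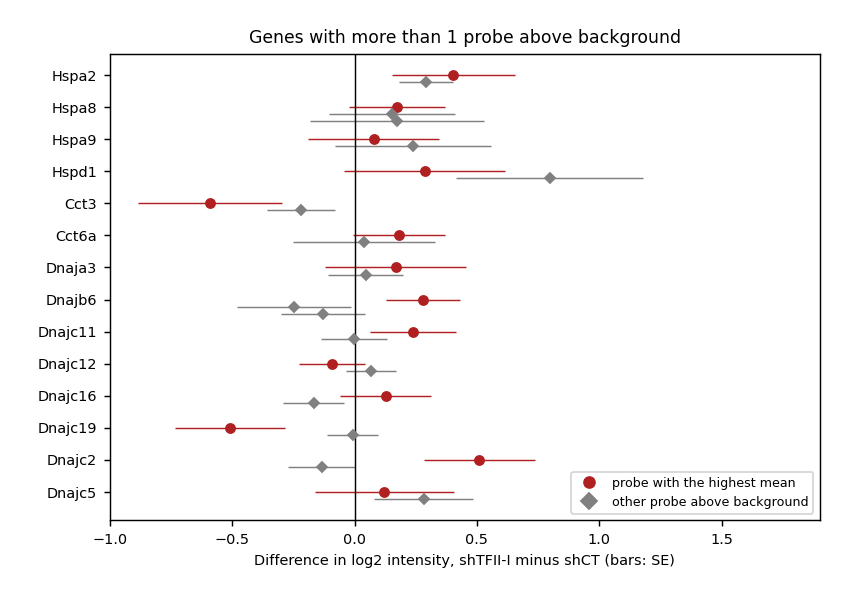
Difference in log2 intensity, shTFII-I minus shCT, with SE, for each probe above background of the 14 chaperone genes with more than 1 such probe. Circles are the probe with the highest mean, which was tested, and diamonds the others, and circle and diamond lie on different sides of 0 for 5 genes.

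The 6 tested genes with a heat shock motif of 2 units before a listed start had differences of both signs. The differences were 0.28 in Dnajb6, 0.29 in Hspd1, 0.11 in Cct5 and 0.07 in Hsph1, and -0.16 in Hspe1 and -0.64 in Hspb6. Hsf1 itself was not among the genes named here, and Hsf4, Hsf5 and Hsf2bp were not above background. Of the factors and regulators that were, Hsf2 differed by 0.03 ± 0.14 and Hsbp1, an inhibitor of HSF1, by 0.21 ± 0.16.

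Partners and regulators of the chaperones, with the HSF genes and Hsbp1 named above, were counted from 5 lists of 54 genes. The lists also held Tcp1, a CCT subunit, and Trap1, an HSP90. Of the 54 genes 41 were tested, 20 higher and 21 lower, with a median of -0.006. In limma 0 passed the adjusted threshold, which 0% of all genes passed. An unadjusted p under 0.05 in limma was found for 2 of the 41, Htra2 and Bag4, beside 6.64% of all genes. The groups did not overlap in 6 list genes, 14.6% of the 41, beside 11.9% of all genes: Htra2, Bag4, Ahsa2, Fkbp8, Lonp1 and Grpel2, the last of them named after its values were seen.

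Among the HSP90 partners 7 were higher and 9 lower. Chordc1, which binds HSP90 and is induced by heat, read 9.83, 9.75 and 9.03 in shCT and 9.38, 8.70 and 8.04 in shTFII-I arrays, overlapping, and differed by -0.83 ± 0.36 (adjusted p = 0.745 in limma). With 1 array left out it ran from -1.17 to -0.50, the latter without the third shTFII-I array. After normexp its unadjusted p in limma was under 0.05, at -0.95 ± 0.37. The same held with a prior that followed intensity, with the replicate block and for genes above background in all 6 arrays. It did not hold without a filter, with a looser background level, with array weights or with the mean of probes. Fkbp4, a partner in steroid receptor complexes, read 10.60, 11.02 and 11.48 in shCT and 10.85, 10.32 and 10.05 in shTFII-I arrays and differed by -0.62 ± 0.28, or by -0.40 without the third shCT array. Ahsa2, related to an activator of HSP90, read 7.23, 7.01 and 7.11 in shCT and 6.83, 6.84 and 6.86 in shTFII-I arrays. It differed by -0.27 ± 0.12, and by -0.53 ± 0.27 after normexp. Its unadjusted p in limma was under 0.05 without a filter, with a looser background level and with the mean of probes. It was not under 0.05 after normexp, with array weights or with a prior that followed intensity. Fkbp8, a partner at the mitochondrial surface, read 9.20, 9.39 and 9.31 in shCT and 9.48, 9.47 and 9.94 in shTFII-I arrays. It differed by 0.33 ± 0.17, and by 0.18 without the third shTFII-I array.

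Among the HSP70 partners 3 were higher and 4 lower. Bag4, an exchange factor that also binds death receptors, read 8.40, 8.47 and 7.93 in shCT and 8.69, 9.13 and 8.90 in shTFII-I arrays. Its groups did not overlap, and it differed by 0.64 ± 0.19, with an adjusted p of 0.641 in limma. Bag6, which guards membrane proteins on the way to their target, differed by -0.23 ± 0.21.

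Among mitochondrial folding and quality genes 6 were higher and 4 lower. Htra2, a protease of the space between the mitochondrial membranes, had the smallest p of all genes in these lists. It read 8.92, 8.98 and 9.41 in shCT and 8.33, 8.57 and 8.33 in shTFII-I arrays, a difference of -0.70 ± 0.17 with an adjusted p of 0.473 in limma. Its other probes differed by -0.45 and 0.23, and the mean of its probes by -0.30. Lonp1, the main protease of the matrix, read 7.98, 8.25 and 8.13 in shCT and 8.42, 8.38 and 8.43 in shTFII-I arrays. It differed by 0.29 ± 0.13 (adjusted p = 0.745 in limma). Its unadjusted p in limma was under 0.05 without a filter, with a looser background level and with the mean of probes. It was not under 0.05 after normexp, with array weights or with a prior that followed intensity. Grpel2, an exchange factor of Hspa9 close to background, read 6.55, 6.65 and 6.64 in shCT and 6.65, 6.68 and 6.73 in shTFII-I arrays and differed by 0.08 ± 0.11. Trap1, the HSP90 of mitochondria, differed by 0.23 ± 0.32 and Timm44, which tethers Hspa9 at the import pore, by -0.27 ± 0.24. The other probes of Timm44 above background had the other sign, at 0.08 and 0.21. Of prefoldin and CCT partners 2 were higher and 4 lower. Vbp1, a prefoldin subunit, was at -0.29 ± 0.17 and at -0.66 ± 0.33 after normexp.

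The chaperones of the endoplasmic reticulum that the symbols leave out were tested for 4 of 6 genes, 2 higher and 2 lower in the mean. Hsp90b1 differed by 0.72 ± 0.41, from 0.41 without the second shTFII-I array to 1.20 without the third, Dnajb9 by 0.06 ± 0.14, Dnajc3 by -0.22 ± 0.17 and Dnajc10 by -0.31 ± 0.34, and 0 of them had groups that did not overlap.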

How the data were processed

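RNA (Qiagen RNeasy) was made into biotin-labelled cRNA with an Ambion MessageAmp kit, per the labels' protocols. Values came from the authors' deposited table, which lists log2 intensity for 45281 probes on 6 arrays. The columns share 1 distribution (sorted values differ by at most 0.0012), as quantile normalization gives, and carry background signal. Limma is named in the submitters' processing notes with no role; background correction is not given in the sources used here. The other table has headings that match no sample, and its 12 columns were not used. The background level, 6.61, is exceeded by 1% of a background mirrored about the mode of all values, 6.45; 12139 probes exceeded it in at least 3 arrays. Probes were named from the platform annotation (34885 with 1 symbol, 18 several, 10378 none), with 34807 symbols updated by Entrez ID through the GRCm38.p6 table. The probe with the highest mean stood for a gene. shTFII-I was compared with shCT in limma 3.58.1 (R 4.3.3, constant prior variance), with Benjamini-Hochberg adjustment over 7215 genes and a threshold of 0.05. The model was also run on simulated independent arrays. The differences put into them were larger than that of any chaperone here, so the run says nothing of smaller ones. An exact permutation test of 3 arrays against 3 cannot go below 0.1. Members, lists and classes were chosen with earlier results of these data known. Values by array were given for chaperones with an unadjusted p under 0.05 or groups apart, for the brightest gene and the largest difference of each class, and, chosen after values were seen, for Dnajb6, Hspa8, Hspe1 and Cct4; from each list up to 4 genes of smallest p were named, and Tcp1 and Grpel2 in addition; which of these got values by array was chosen after values were seen.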

Additional observations from a re-analysis of the deposited data

How the results depend on the processing

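In all 16 alternatives 0 chaperones passed the adjusted threshold. The count over all genes, 0, was 6 under a robust, intensity-dependent prior and 5 after normexp, with 0 chaperones among them, and stayed 0 with 1 array left out. Without a filter 1011 genes had an unadjusted p under 0.05, 73 chaperones were tested (39 higher, 34 lower), and the median of the small heat shock proteins, -0.64 for Hspb6 alone, became -0.053 over 8 genes, most below background. Chaperones with an unadjusted p under 0.05 numbered 1 with that prior and 1 to 4 with 1 array left out, where the count of higher chaperones ran from 17 to 24 and of lower from 12 to 19. Of the 36, 16 kept their sign in every alternative. With array weights Dnaja3 was -0.0080, Dnajc18 0.052, Dnajc24 -0.084, Dnajc28 0.0058, Hspbap1 -0.068, Hsph1 -0.15 and Hsf2 -0.0040; with the mean of probes Dnajb6 was -0.032, Dnajc16 -0.020 and Timm44 0.0089; the cause was not tested. With 1 array left out the differences of genes that changed sign ran from -0.25 to 0.50 for Cct4, -0.40 to 0.092 for Cct8, -0.030 to 0.095 for Dnaja2, -0.14 to 0.39 for Dnaja3, -0.046 to 0.14 for Dnajb12, -0.10 to 0.17 for Dnajb2, -0.16 to 0.0046 for Dnajc12, -0.015 to 0.26 for Dnajc16, -0.085 to 0.050 for Dnajc18, -0.18 to 0.14 for Dnajc24, -0.046 to 0.027 for Dnajc28, -0.087 to 0.39 for Dnajc5, -0.27 to 0.25 for Dnajc7, -0.44 to 0.057 for Dnajc8, -0.11 to 0.039 for Hspa4, -0.13 to 0.33 for Hspa9, -0.019 to 0.55 for Hspbap1, -0.47 to 0.037 for Hspe1, -0.094 to 0.31 for Hsph1, -0.079 to 0.12 for Hsf2, -0.088 to 0.51 for Trap1, -0.52 to 0.26 for Tcp1, -0.68 to 0.037 for Dnajc10 and -0.047 to 0.16 for Dnajb9. Median centring of the arrays moved nothing, as their medians are equal. With the replicate block 0 genes and 0 chaperones passed, and Dnajb1 and Hspb6 again had an unadjusted p under 0.05 in limma. The deviations of arrays that share a number correlated at -0.014, 0.0032 and 0.10, and those of arrays with different numbers at -0.11 to 0.13. With 3 arrays a group these values cannot decide whether arrays were paired by number. No slide or scan is named in the labels or headings used. Genes near background have differences that are too small at this signal.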
